A study of Rattus norvegicus with 34 samples.

Results

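The expression of 4 genes of the complement system, *C1s*, *C3*, *C5ar1*, and *C5ar2*, was followed in the retina of PKD and Sprague Dawley (SD) rats. They were chosen by name for their place in the complement cascade, out of 44 specific genes and 4 reference genes on a TaqMan microfluidic card, a plate that runs a separate real-time PCR for each gene in parallel. Data of 23 rats were used, each with 1 well per gene. The 6 SD rats were uninjected Sprague Dawley animals, and the 6 PKD rats were uninjected transgenic animals. PKD rats were male and homozygous for the transgene PKD2(HA-1/703-CMV-247), which encodes a truncated polycystin-2 under a CMV promoter and is therefore not restricted to a retinal cell type. A further 5 PKD rats received clodronate-coated liposomes (PKD + Clodronate), and 6 PKD rats received control liposomes (PKD + Controlliposomes), in both cases as 3 µl into the vitreous at 4 and 8 weeks of age. All rats were 9 weeks old when the retina was taken, 1 week after the second injection. PBS-injected PKD rats and clodronate-treated SD rats were not analysed here. In comparisons of a liposome group with uninjected rats, effects of the injection and of the liposomes therefore cannot be told apart.

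Complement is a cascade of plasma and tissue proteins that tags and removes microbes, debris, and, in the nervous system, synapses. C1s is the serine protease of the C1 complex that cleaves the next components of the classical pathway, and C3 is the central component on which all pathways converge and whose fragments coat targets for phagocytosis. Further along the cascade the small peptide C5a is released. C5ar1 is the G protein-coupled receptor through which C5a attracts and activates myeloid cells, and C5ar2 is a second C5a receptor that does not couple to G proteins. In the retina, microglia are known to carry receptors for complement fragments, and both microglia and macroglia can make complement components. Liposomes are taken up by phagocytes, and clodronate released inside these cells is toxic to them.

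A Cq is the PCR cycle at which a well's signal passes a threshold, so that 1 cycle less stands for about 2-fold more template. The Cq of each gene was subtracted from the mean of 4 reference genes in the same rat (*Ywhaz*, *Mrpl19*, *B2m*, and *18S*), and expression is given on the log2 scale with the SD mean set to 0. All 92 wells of the 4 complement genes had a Cq. Mean Cq values in SD and control liposome-treated PKD rats were 24.4 and 23.2 for *C1s*, 24.0 and 21.9 for *C3*, 26.5 and 26.1 for *C5ar1*, and 27.9 and 27.3 for *C5ar2*. Cq values were not compared between genes, since each assay has its own amplicon. RefSeq lists a pseudogene of *C1s*, and whether the assay also detects it is not given in the sources used here. The number of template copies behind a Cq is unknown, and the groups of rats were small. RNA came from whole retina, in which fewer cells of a type and less RNA per cell cannot be told apart.

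The RefSeq table of rat promoters held *C3* and *C5ar2*, 2 of the 4 genes. Both are shown because they were the only ones of the 4 genes with an entry. With the reference genes as the normalizer, *C3* was the complement gene that differed most from SD rats. *C5ar2* was then the one that separated the liposome groups most. Each run covers 250 bases before and 50 bases after the annotated start of transcription on the GRCr8 build, 5′ to 3′ on the strand of the gene. Capitals mark letters of a searched motif.
C3 promoter, chr9:2201290-2201589, minus strand: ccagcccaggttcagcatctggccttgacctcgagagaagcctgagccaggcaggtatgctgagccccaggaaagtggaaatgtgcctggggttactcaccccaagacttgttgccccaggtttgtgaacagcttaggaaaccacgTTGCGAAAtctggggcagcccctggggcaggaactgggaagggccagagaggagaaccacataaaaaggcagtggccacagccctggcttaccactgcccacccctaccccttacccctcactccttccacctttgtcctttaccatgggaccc
C5ar2 promoter, chr1:86070504-86070803, minus strand: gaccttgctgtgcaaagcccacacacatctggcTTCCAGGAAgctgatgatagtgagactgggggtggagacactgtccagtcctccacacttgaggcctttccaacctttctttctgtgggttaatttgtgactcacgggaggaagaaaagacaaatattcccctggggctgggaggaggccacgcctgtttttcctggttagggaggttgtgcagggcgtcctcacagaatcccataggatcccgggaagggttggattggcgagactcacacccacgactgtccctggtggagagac

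The *C3* window held 1 run of the C/EBP letters TTGCNNAA, and the *C5ar2* window held 1 run of the STAT letters TTCNNNGAA. Both strands were searched, and the matches of different motifs did not overlap. Among 33469 rat promoters of the same length, 10.6% held the C/EBP letters and 8.87% the STAT letters. The NF-kappaB motif, found in 7.51% of promoters, was in neither window.

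A pair of SD rats stood apart, identified by their animal numbers 93 and 97. They were picked in part by their complement values, so fits without them are a description and not separate support. In SD rat 97 the mean of the 6 glial reactivity genes *Gfap*, *Serpina3n*, *Lcn2*, *Socs3*, *Timp1*, and *Chi3l1* was 2.05, against -0.76 to 0.04 in the other SD rats. SD rat 97 also had the highest *C1s* and *C3* values of the SD group, 1.15 and 1.32. SD rat 93 had the lowest *C1s*, *C5ar1*, and *C5ar2* values of the SD group, and its *18S* Cq of 5.53 was the lowest of all rats. The differences of *C1s*, *C3*, *C5ar1*, and *C5ar2* to SD rats are therefore also given without these rats. Those of *Itgam* and the other markers are given with all SD rats only.

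When normalized to the reference genes, *C3* had the largest difference of the 4 genes in the 3 comparisons with SD rats. The same held in control liposome-treated compared to untreated PKD rats. *C1s* differed more between clodronate-treated and untreated PKD rats (0.93 against 0.53), and *C5ar2* more between the liposome groups (0.83 against 0.63). In SD rats *C3* ranged from -0.85 to 1.32 with a median of -0.08. In PKD rats it ranged from 0.97 to 1.30 (median 1.15, n = 6). All PKD values lay above every SD value except that of SD rat 97. The 5 clodronate-treated rats had values of 1.00, 1.30, 1.75, 1.89, and 2.38, and the 6 control liposome-treated rats ranged from 1.45 to 2.98 with a median of 2.40. The highest retinal *C3* was thus found with control liposomes, where all 6 rats exceeded every PKD and every SD rat, while the clodronate group overlapped with the groups on either side. *C3* varied little among untreated PKD rats, with an SD of 0.14, compared to 0.77 in SD rats, 0.53 with clodronate, and 0.59 with control liposomes.

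*C3* expression was 2.20-fold higher in PKD compared to SD rats (log2 difference 1.13, SE 0.32, limma adjusted p = 0.00555). The call held with any 1 rat left out, with log2 differences from 0.97 to 1.40 and a highest limma adjusted p of 0.0224. Without SD rat 97 the log2 difference was 1.40 with an adjusted p of 0.000216, and without SD rat 93 it was 1.11 with an adjusted p of 0.0105. When the reference genes were replaced by the mean over those specific genes that had no empty well (the specific-gene mean), it was 0.31 (adjusted p = 0.234) and no longer passed. Against SD rats *C3* was 3.17-fold higher after clodronate (log2 difference 1.67, SE 0.33, limma adjusted p = 0.000194) and 4.91-fold higher after control liposomes (2.30, SE 0.32, limma adjusted p = 1.18e-06). Without SD rat 97 these log2 differences were 1.93 and 2.56, without SD rat 93 they were 1.64 and 2.27, and both passed the test in either case. With the specific-gene mean they were smaller, 0.78 and 1.25, and both passed. The 3 comparisons share the same SD rats. Compared to untreated PKD rats, *C3* rose 2.24-fold in control liposome-treated rats (log2 difference 1.16, SE 0.32, limma adjusted p = 0.0490), and the exact permutation p was 0.00216, the smallest that 6 against 6 rats allow. This call sat at the threshold, and the adjusted p was between 0.0153 and 0.161 when single rats were left out, with the call kept in 2 of 12 fits. With rats numbered in the order of the deposited table, it held without control liposome-treated rat 1 (1.26) and rat 6 (1.33), and was lost without any of the other 4 of that group or any of the 6 PKD rats, while the difference stayed between 1.02 and 1.33. It was also lost when *B2m* (1.25, adjusted p = 0.0841), *Mrpl19* (1.04, adjusted p = 0.156), or *Ywhaz* (1.11, adjusted p = 0.0694) was left out of the reference genes. Of 10 alternative settings, 7 kept it, among them those without *18S* (1.25, limma adjusted p = 0.0111) and with the specific-gene mean (0.94, limma adjusted p = 0.0153).

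The difference in *C3* between clodronate-treated and untreated PKD rats was 0.53 (SE 0.33, 95% interval -0.16 to 1.22), with a limma adjusted p of 0.472 and an exact p of 0.0368. Between control liposome- and clodronate-treated rats it was 0.63 (SE 0.33, 95% interval -0.06 to 1.32), with a limma adjusted p of 0.410 and an exact p of 0.104. Of the 5 clodronate-treated rats, 4 lay above every PKD rat, and 3 of 6 control liposome-treated rats lay above every clodronate-treated rat.

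**Figure D1:**
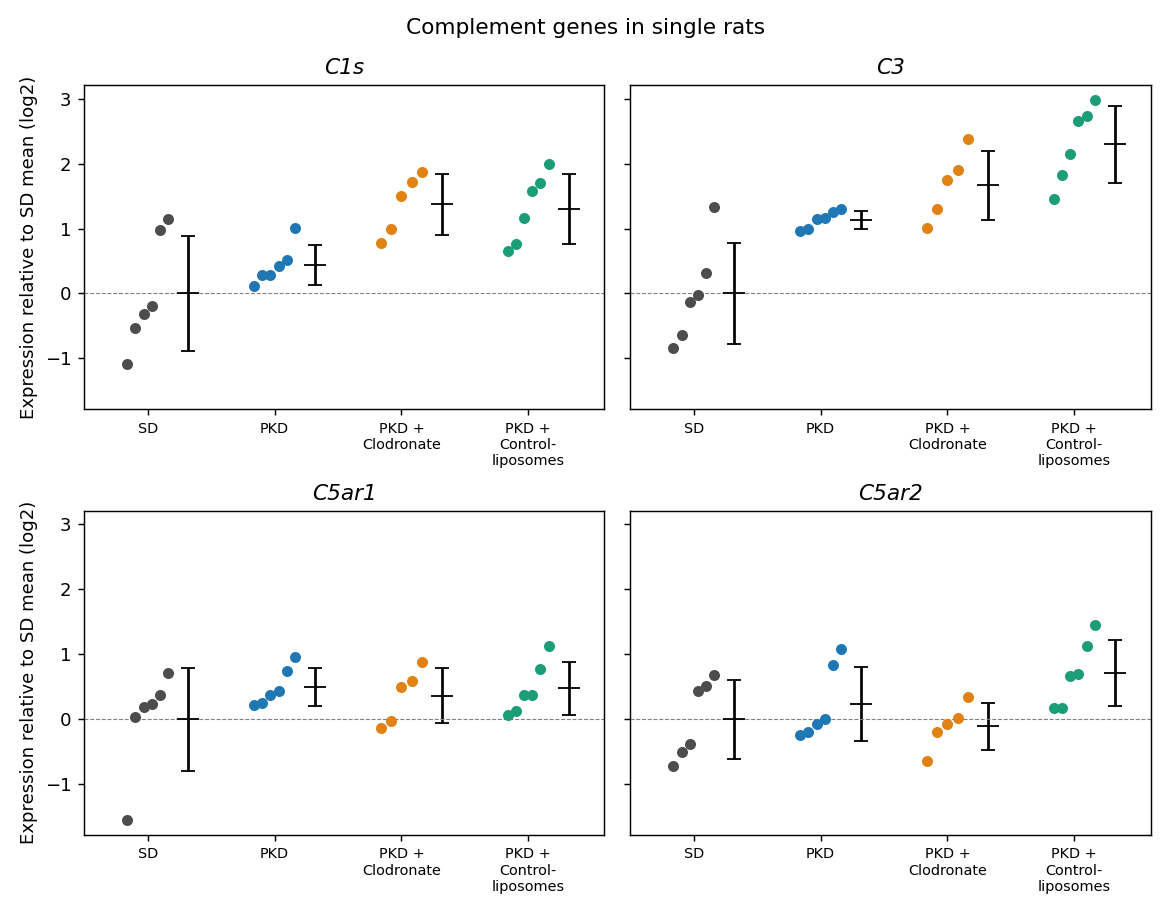
Expression of *C1s*, *C3*, *C5ar1*, and *C5ar2* in each rat (points) by group, normalized to the 4 reference genes and set relative to the SD mean (log2, dashed line), with the group mean and SD as bars (n = 6, 6, 5, and 6). All 6 control liposome-treated rats lie above all PKD rats for *C3*, both liposome groups are high for *C1s*, and 1 SD rat lies far below the others for *C5ar1* at -1.55.

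*C1s*, the protease of the first complement complex, was high in both liposome groups alike. SD rats ranged from -1.09 to 1.15 with a median of -0.25. PKD rats ranged from 0.12 to 1.00 with a median of 0.36, entirely within the range of the SD rats. Values after clodronate were 0.78, 1.00, 1.50, 1.72, and 1.87, and after control liposomes the range was 0.65 to 1.99 with a median of 1.37. Of the clodronate-treated rats 3 of 5, and of the control liposome-treated rats 4 of 6, lay above every SD and every PKD rat.

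In comparison to SD rats, *C1s* was 2.59-fold higher after clodronate (log2 difference 1.37, SE 0.35, limma adjusted p = 0.00167) and 2.47-fold higher after control liposomes (1.30, SE 0.33, limma adjusted p = 0.00159). Both calls held when any 1 rat was left out, with differences of 1.16 and 1.09 without SD rat 93 and of 1.60 and 1.53 without SD rat 97. With the specific-gene mean as the normalizer they were 0.49 (limma adjusted p = 0.0577) and 0.26 (limma adjusted p = 0.263) and no longer passed. In untreated PKD rats *C1s* exceeded SD rats by 0.44 (SE 0.33, limma adjusted p = 0.347), by 0.67 without SD rat 97 (adjusted p = 0.0880), and by 0.22 without SD rat 93 (adjusted p = 0.651), and did not pass the test. This difference turned to -0.38 with the specific-gene mean (adjusted p = 0.121). Compared to untreated PKD rats the differences were 0.93 after clodronate (SE 0.35, limma adjusted p = 0.391, exact p = 0.00866) and 0.86 after control liposomes (SE 0.33, limma adjusted p = 0.158, exact p = 0.0108). All 5 and all 6 rats, respectively, lay above the PKD mean, but neither difference passed the adjustment over the card. *C1s* ranked second by size of difference among the 41 tested genes in both of these comparisons. The difference between the liposome groups was -0.07 (SE 0.35, 95% interval -0.79 to 0.65, limma adjusted p = 0.886).

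For *C5ar1*, the activating C5a receptor, no comparison passed the test when normalized to the 4 reference genes. Apart from SD rat 93 at -1.55, SD rats lay between 0.04 and 0.72. PKD rats ranged from 0.21 to 0.95 (median 0.40), clodronate-treated rats had values of -0.13, -0.02, 0.50, 0.58, and 0.88, and control liposome-treated rats ranged from 0.07 to 1.12 (median 0.37). All 4 groups overlapped. Differences to SD rats were 0.49 in PKD (SE 0.30, limma adjusted p = 0.208), 0.36 after clodronate (SE 0.31, limma adjusted p = 0.318), and 0.47 after control liposomes (SE 0.30, limma adjusted p = 0.172). Without SD rat 93 they were 0.18, 0.05, and 0.16, with adjusted p-values of 0.605, 0.855, and 0.610, and without SD rat 97 they were 0.57, 0.44, and 0.55, again not called. With the specific-gene mean all 3 turned to the opposite direction, to -0.33, -0.52, and -0.57, and the last, after control liposomes, passed the test (limma adjusted p = 0.0238). Among PKD rats, the difference to untreated animals was -0.13 after clodronate (95% interval -0.78 to 0.52) and -0.02 after control liposomes (95% interval -0.64 to 0.60).

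*C5ar2*, the second C5a receptor, had its highest group mean after control liposomes when normalized to the reference genes, whereas with the specific-gene mean as the normalizer it lay below SD rats in all PKD groups (-0.33 after control liposomes, -0.59 in PKD, and -0.99 after clodronate). SD rats ranged from -0.72 to 0.67 (median 0.02), and PKD rats from -0.24 to 1.09 (median -0.03), with 4 of 6 PKD rats between -0.24 and 0.00 and the other 2 at 0.84 and 1.09. Clodronate-treated rats had values of -0.64, -0.20, -0.08, 0.02, and 0.34, and control liposome-treated rats ranged from 0.17 to 1.45 (median 0.68). Of the 6 control liposome-treated rats, 4 lay above every clodronate-treated rat, and the lowest pair, at 0.17 and 0.18, lay below the highest clodronate-treated rat.

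*C5ar2* was 1.64-fold higher in control liposome-treated compared to SD rats (log2 difference 0.71, SE 0.30, limma adjusted p = 0.0435, exact p = 0.0606). The call was lost without *Mrpl19* (0.59, adjusted p = 0.111) or *Ywhaz* (0.57, adjusted p = 0.112) among the reference genes and in the fit of the compared groups alone (adjusted p = 0.0766), and the direction turned to -0.33 with the specific-gene mean (adjusted p = 0.246). It was kept in 5 of 12 fits with 1 rat left out. It was lost without SD rat 93 (0.57, adjusted p = 0.116), without 2 further SD rats, and without control liposome-treated rats 1, 2, 3, or 4, whereas without SD rat 97 the difference was 0.85 (adjusted p = 0.0192). Between control liposome- and clodronate-treated rats *C5ar2* differed by 0.83 (SE 0.32, 95% interval 0.17 to 1.48, exact p = 0.0173), the fifth largest difference of the card, but the limma adjusted p was 0.147. Differences to untreated PKD rats were -0.35 after clodronate (SE 0.32, limma adjusted p = 0.610) and 0.48 after control liposomes (SE 0.30, limma adjusted p = 0.436). The one after clodronate lay between -0.46 and -0.18 with single rats left out. PKD rats exceeded SD rats by 0.24 (SE 0.30, limma adjusted p = 0.589), which was 0.09 without SD rat 93 and 0.37 without SD rat 97. After clodronate *C5ar2* differed from SD rats by -0.11 (limma adjusted p = 0.727), by -0.26 without SD rat 93, and by 0.02 without SD rat 97.

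**Figure D2:**
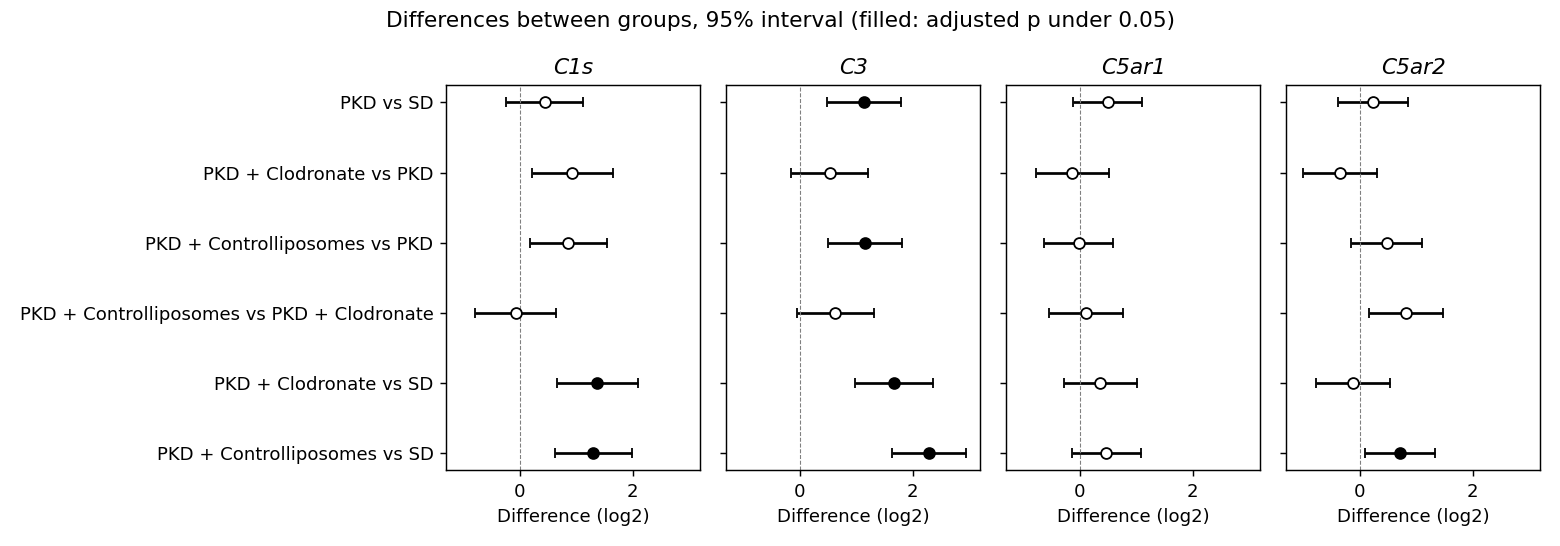
Log2 differences of the 4 genes (panels) in 6 comparisons (rows) with 95% intervals from limma, drawn as filled points where the adjusted p was under 0.05. Filled points are *C3* in 4 comparisons, *C1s* in both liposome groups compared to SD rats, and *C5ar2* in control liposome-treated compared to SD rats at 0.71.

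The number of complement genes past the test was read against the share of all 41 tested genes. In PKD compared to SD rats, 36.6% of the tested genes passed, and of the complement genes 1 of 4 did (*C3*). The median difference was 0.47 over the 4 complement genes and 0.44 over all tested genes. In clodronate-treated compared to SD rats 51.2% of tested genes passed and 2 of 4 complement genes did (*C1s* and *C3*), with medians of 0.87 and 0.63. In control liposome-treated compared to SD rats 63.4% passed and 3 of 4 complement genes did (*C1s*, *C3*, and *C5ar2*), with medians of 1.01 and 0.75. In these comparisons the complement genes were thus called about as often as the rest of the card.

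Fewer genes passed among PKD rats. In control liposome-treated compared to untreated PKD rats 2.44% of the tested genes passed, which was the single gene *C3*, with a median of 0.67 over the complement genes and 0.22 over all tested genes. *C3* and *C1s* had the largest and second largest difference of the card there. Groups were fully separated for 7.32% of the tested genes in this comparison, *C3* among them. In control liposome- compared to clodronate-treated rats 4.88% passed (*Aif1* and *Itgam*), none of the 4 genes *C1s*, *C3*, *C5ar1*, and *C5ar2* among them, with medians of 0.37 and 0.07. Without *B2m* among the reference genes 0 genes passed there. In clodronate-treated compared to untreated PKD rats 0% passed in limma, whereas 5 of 41 genes had an unadjusted limma p under 0.05. The exact permutation test gave 8 genes at that unadjusted level and 0 after adjustment.

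*Itgam*, the only other complement gene on the card, encodes the alpha chain of complement receptor 3, with which microglia bind C3 fragments. Its mean rose by 0.83 in PKD compared to SD rats (SE 0.21, limma adjusted p = 0.00275). SD rats ranged from -0.53 to 0.67, PKD rats from 0.56 to 1.06, clodronate-treated rats from 0.46 to 0.93, and control liposome-treated rats from 1.19 to 1.91. All 6 control liposome-treated rats lay above all rats of the other groups, as they did for *C3* in comparison to PKD rats but not to clodronate-treated rats. *Itgam* was 0.81 higher with control liposomes than with clodronate (SE 0.22, limma adjusted p = 0.0278) and 0.67 higher than in untreated PKD rats (SE 0.21, limma adjusted p = 0.0844). The call between the liposome groups was lost without *B2m* among the reference genes and in at least 1 fit with 1 rat left out. With the reference genes as the normalizer, limma called *C3* and *Itgam* higher in all 3 PKD groups compared to SD rats, whereas the exact permutation test did not call *Itgam* after clodronate (0.70, adjusted p = 0.0514). With the specific-gene mean the *Itgam* difference to SD rats was 0.0052 in PKD (limma adjusted p = 0.972) and turned to -0.19 after clodronate (adjusted p = 0.308), and only the one after control liposomes was called (0.46, adjusted p = 0.0120).

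Markers of microglia and macrophages were counted beside the complement genes. Of 10 such markers, 3 were higher in PKD than in SD rats (*Itgam*, *Lgals3*, and *Tyrobp*), the same 3 after clodronate, and 5 after control liposomes (with *Aif1* and *Fcgr3a*). These counts were smaller shares than the 36.6%, 51.2%, and 63.4% of all tested genes, and the median differences of the markers were 0.21, 0.44, and 0.58 beside 0.44, 0.63, and 0.75 over all tested genes. The exact permutation test did not call *Lgals3* in PKD compared to SD rats (0.93, adjusted p = 0.0940), nor *Itgam* after clodronate (0.70, adjusted p = 0.0514). The direction of the counts depended on the normalizer, but the counts cannot show that single markers fell. The specific-gene mean moved all 10 markers of a comparison by the same amount. Compared to SD rats this was -0.82 in PKD, -0.88 after clodronate, and -1.05 after control liposomes. That mean also includes genes that were themselves called higher in PKD rats, such as *Socs3* and *Serpina3n*. With the specific-gene mean 0 markers were higher and 5 lower in PKD than in SD rats, 1 (*Lgals3*) was higher and 3 lower after clodronate, and 1 (*Itgam*) was higher and 4 lower after control liposomes. Compared to untreated PKD rats, only *Itgam* passed on that scale, after control liposomes (0.45, limma adjusted p = 0.0457). With the reference genes none passed in limma in either liposome group compared to untreated PKD rats. The exact permutation test with adjustment over the card called *Itgam* (difference 0.67, adjusted p = 0.0296) and *Aif1* (0.65, adjusted p = 0.0444) higher in control liposome-treated than in untreated PKD rats, the comparison in which *C3* was also called (exact test, adjusted p = 0.0296), with *Itgam* fully separated between the groups. *Aif1* and *Itgam* were also higher with control liposomes than with clodronate. Neither was called without *B2m* among the reference genes, nor in at least 1 fit with 1 rat left out. With the specific-gene mean both were called (limma adjusted p = 0.0255 and 0.0154). The mean of the 10 markers, normalized to the reference genes, was 0.32 ± 0.24 (SD, n = 6) in PKD, 0.46 ± 0.31 (n = 5) after clodronate, and 0.73 ± 0.34 (n = 6) after control liposomes relative to SD rats. All 10 had a Cq in every rat, and *Lgals3* had the lowest Cq. Of the 6 glial reactivity genes, 5 were higher in PKD and all 6 in both liposome groups compared to SD rats, and none differed among the PKD groups at an adjusted p under 0.05. The cytokine gene *Il1b* was higher than in SD rats after both liposomes and *Il6* after control liposomes, and *Tnf* passed in no comparison. On the scale of the specific-gene mean 5, 4, and 4 of the 6 glial reactivity genes remained called higher than in SD rats in PKD, after clodronate, and after control liposomes, while *Il1b* and *Il6* were not called and *Tnf* was called lower in all 3. The part of cell numbers in the complement values was not tested.

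To compare members without any reference gene, Cq values of 2 genes of the same rat were subtracted, which gave 6 pairs in 6 comparisons and 36 exact permutation tests with adjustment over all of them. *C3* relative to *C1s* ranged from -0.66 to 0.96 in SD rats and from 0.29 to 0.85 in PKD rats. Clodronate-treated rats had values of 0.03, 0.22, 0.31, 0.39, and 0.51, and control liposome-treated rats lay between 0.66 and 1.49. The liposome groups did not overlap, with relatively more *C3* after control liposomes in all 6 rats (difference 0.70, exact p = 0.00649, adjusted p = 0.0468). Relative to *C1s*, *C3* was lower after clodronate than in untreated PKD rats by a difference of -0.40 (exact p = 0.0152, adjusted p = 0.0496) and higher after control liposomes than in SD rats (0.99, exact p = 0.0152, adjusted p = 0.0496).

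*C5ar2* relative to *C5ar1* was also higher after control liposomes than after clodronate. Values after clodronate were -0.62, -0.58, -0.56, -0.54, and -0.08, and after control liposomes they lay between -0.20 and 0.62. Only 1 clodronate-treated rat overlapped with the control liposome group (difference 0.71, exact p = 0.0130, adjusted p = 0.0496). SD rats (-0.62 to 0.83) and PKD rats (-1.02 to 0.71) covered the range of both.

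*Aif1*, which encodes the microglial protein Iba1, served as the partner for the remaining pairs. *C1s* relative to *Aif1* lay between 1.08 and 2.85 after clodronate and was above every PKD rat (-0.30 to 0.95) and every SD rat (-0.69 to 0.77). The difference was 1.28 to PKD rats and 1.60 to SD rats, both with an exact p of 0.00433 and an adjusted p of 0.0390. With control liposomes (-0.15 to 1.17) the same quantity was lower than with clodronate by a difference of -1.06 (exact p = 0.00866, adjusted p = 0.0496). Normalized to the reference genes, *C1s* alone differed by -0.07 between these groups, whereas *Aif1* alone was 0.99 higher with control liposomes. *C3* relative to *Aif1* was higher than in SD rats in PKD (1.01, exact p = 0.0108, adjusted p = 0.0496), after clodronate (1.89, exact p = 0.00433, adjusted p = 0.0390), and after control liposomes (1.53, exact p = 0.00216, adjusted p = 0.0390). It was not called after control liposomes compared to PKD rats (0.52, exact p = 0.0541, adjusted p = 0.130), where *C3* alone differed by 1.16. Between control liposomes and clodronate the difference was -0.36 (exact p = 0.452, adjusted p = 0.582), against 0.63 for *C3* alone, and between clodronate-treated and untreated PKD rats it was 0.88 (exact p = 0.0195, adjusted p = 0.0584). The latter lay between 0.51 and 1.03 with single rats left out. *C5ar1* relative to *Aif1* was lower with control liposomes than with clodronate (difference -0.88, exact p = 0.0152, adjusted p = 0.0496), against 0.11 for *C5ar1* alone. With single rats left out the pair difference lay between -1.02 and -0.56, the latter without clodronate-treated rat 3 (exact test, adjusted p = 0.132). The call was kept in 1 of 11 fits.

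*C5ar2* relative to *Aif1* differed least, with group differences between -0.17 and 0.11 and exact p-values between 0.623 and 0.998. In SD rats this value lay between -0.42 and 0.61, in PKD rats between -0.79 and 1.05, after clodronate between -0.38 and 1.32, and after control liposomes between -0.62 and 0.63. *Aif1* itself was 0.99 higher after control liposomes than after clodronate (SE 0.25, limma adjusted p = 0.0194), a call lost without *B2m* among the reference genes. Each of the 11 pair calls was lost in some of the fits with 1 rat left out. The higher *C5ar2* relative to *C5ar1* after control liposomes than after clodronate was kept in 0 of 11 fits, with adjusted p-values of the exact permutation test from 0.0557 to 0.0857 and a difference between 0.64 and 0.81. The calls of *C3* relative to *C1s* were kept in 1 of 11 fits for clodronate-treated compared to PKD rats, in 1 of 11 between the liposome groups, where the difference stayed between 0.60 and 0.77, and in 1 of 12 for control liposome-treated compared to SD rats. The first difference stayed at -0.48 to -0.34 and the last at 0.86 to 1.18. For *C1s* relative to *Aif1* the call was kept in 6 of 11 fits after clodronate compared to PKD rats, where the difference stayed between 0.97 and 1.41, in 6 of 11 after clodronate compared to SD rats (1.29 to 1.75), and in 1 of 11 between the liposome groups (-1.19 to -0.75). For *C3* relative to *Aif1* compared to SD rats it was kept in 3 of 12 fits in PKD, in 6 of 11 after clodronate, and in 8 of 12 after control liposomes. These differences stayed at 0.90 to 1.20, 1.52 to 2.08, and 1.43 to 1.72.

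**Figure D3:**
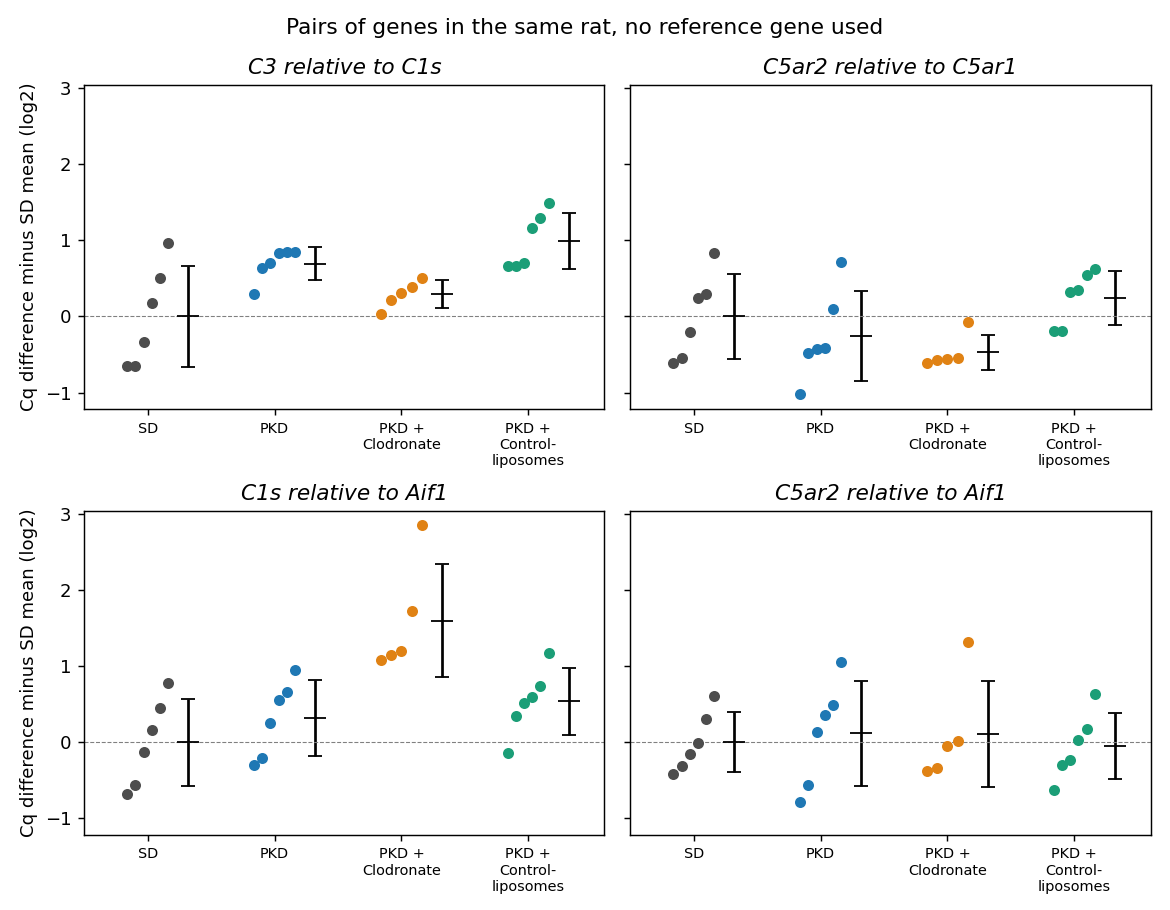
Differences in Cq between 2 genes of the same rat, minus the SD mean (log2, dashed line), by group, with points for rats and bars for mean and SD (n = 6, 6, 5, and 6). *C3* relative to *C1s* does not overlap between the liposome groups, *C1s* relative to *Aif1* is highest after clodronate, and *C5ar2* relative to *Aif1* lies around the SD mean in all groups.

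Apart from the group means, the genes whose deviations from the group mean were most alike across the 23 rats differed between the complement genes. They are given as a description, since all wells of a rat share its RNA and reference genes. The median r with the other genes of the card was 0.520 for *C1s*, 0.405 for *C3*, 0.376 for *C5ar1*, and 0.340 for *C5ar2*. Without *18S* among the reference genes these medians were 0.396, 0.310, 0.208, and 0.123. *C1s* went most closely with *Tyrobp*, the signalling adaptor of myeloid receptors (Pearson r = 0.876), *Fcgr3a*, an Fc receptor (0.798), and *Igf1*, a growth factor (0.797). *C3* went with *Tyrobp* (0.771), *Itgam* (0.763), and *Gfap*, the intermediate filament of reactive macroglia (0.755). *C5ar1* went with *Pgf*, a growth factor of the VEGF family (0.896), *Fcgr2a* (0.869), and the adhesion molecule *Icam1* (0.868). *C5ar2* went with *C1s* (0.770), *Tyrobp* (0.695), and *C5ar1* (0.602). *Tyrobp* was therefore among the nearest 3 genes of *C1s*, *C3*, and *C5ar2*.

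Among the macrophage markers *C5ar1* also had high values of r with *Stab1* (0.828), *Mrc1* (0.826), and *Cd74* (0.817), and a low one with *Aif1* (0.150). For *C3* the values were 0.182 with *Mrc1* and 0.241 with *Stab1*. The deviations also went with the *18S* well, and its part in them was not tested. Expression went with the *18S* Cq at an r of 0.834 for *C5ar1*, 0.610 for *C1s*, 0.577 for *C5ar2*, and 0.420 for *C3*, and at 0.632, 0.379, 0.310, and 0.129 when *18S* was left out of the reference mean. Without *18S*, *C5ar1* fell from the third to rank 7 among the genes nearest to *C5ar2* (r = 0.399), whereas *Tyrobp* stayed nearest to *C1s* and *C3* and *Pgf* nearest to *C5ar1*.

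**Figure D4:**
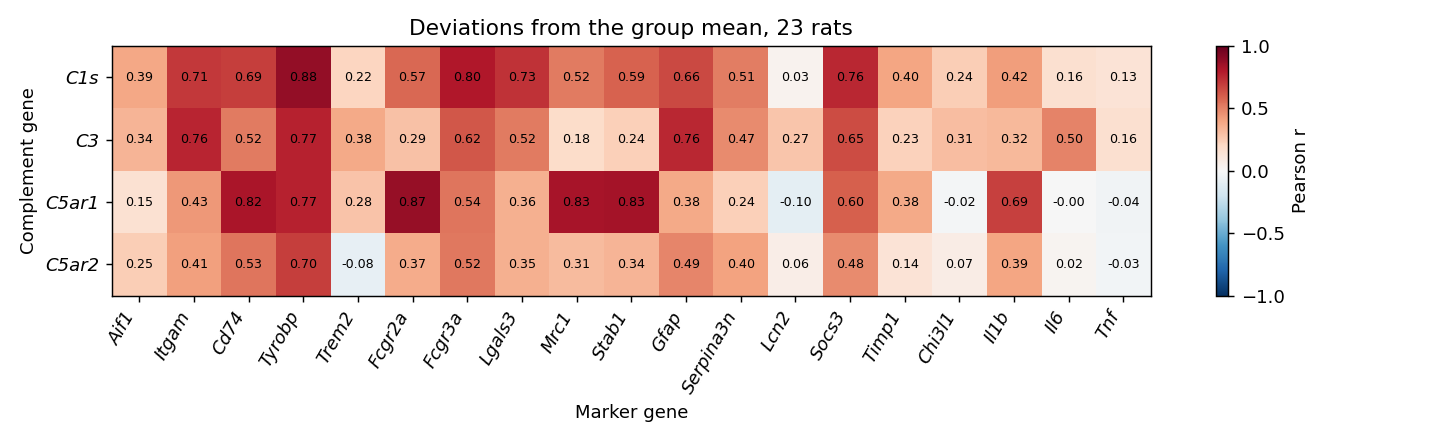
Pearson r between deviations from the group mean for each complement gene (rows) and 19 marker genes of microglia and macrophages, glial reactivity, and cytokines (columns) over 23 rats, on a scale from -1 (blue) to 1 (red). *Tyrobp* has a high r with all 4 genes (0.695 to 0.876), and *Mrc1* and *Stab1* have their highest r with *C5ar1*.

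The level against which expression is set mattered for the comparisons with SD rats. No difference of the 4 reference genes or their mean between groups passed 30 exact permutation tests (smallest p = 0.0195, adjusted p = 0.314). With 0.00216 as the smallest possible p, 1 fully separated difference alone could not have passed that adjustment. After control liposomes compared to SD rats, mean Cq differed by -0.65 for *B2m* (exact p = 0.0563), 0.51 for *Mrpl19* (exact p = 0.0325), and 0.58 for *Ywhaz* (exact p = 0.0281). When the specific genes themselves served as the normalizer, the median difference to SD rats over all tested genes moved by -0.82 for PKD, by -0.88 for clodronate, and by -1.05 for control liposomes. *C3* was then still higher than in SD rats by 0.31, 0.78, and 1.25, of which the last pair passed the test. *C5ar1* and *C5ar2* lay below SD rats in all 3 comparisons on that scale, from -0.33 to -0.99. Both moved by the same amount as the median gene, so these lower values do not show whether the genes themselves fell. They place a gene relative to the card. With the reference genes, *C5ar2* after clodronate lay at -0.11 beside a median of 0.63 over all tested genes. With the specific-gene mean it lay at -0.99 (limma adjusted p = 0.00338) beside -0.25. *C5ar1* in PKD lay slightly above the median gene on that scale, at -0.33 beside -0.38. Among the PKD groups the differences moved less, and *C1s* passed the test on that scale both after clodronate (0.87, limma adjusted p = 0.0216) and after control liposomes (0.64, limma adjusted p = 0.0457) compared to untreated PKD rats.

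**Figure D5:**
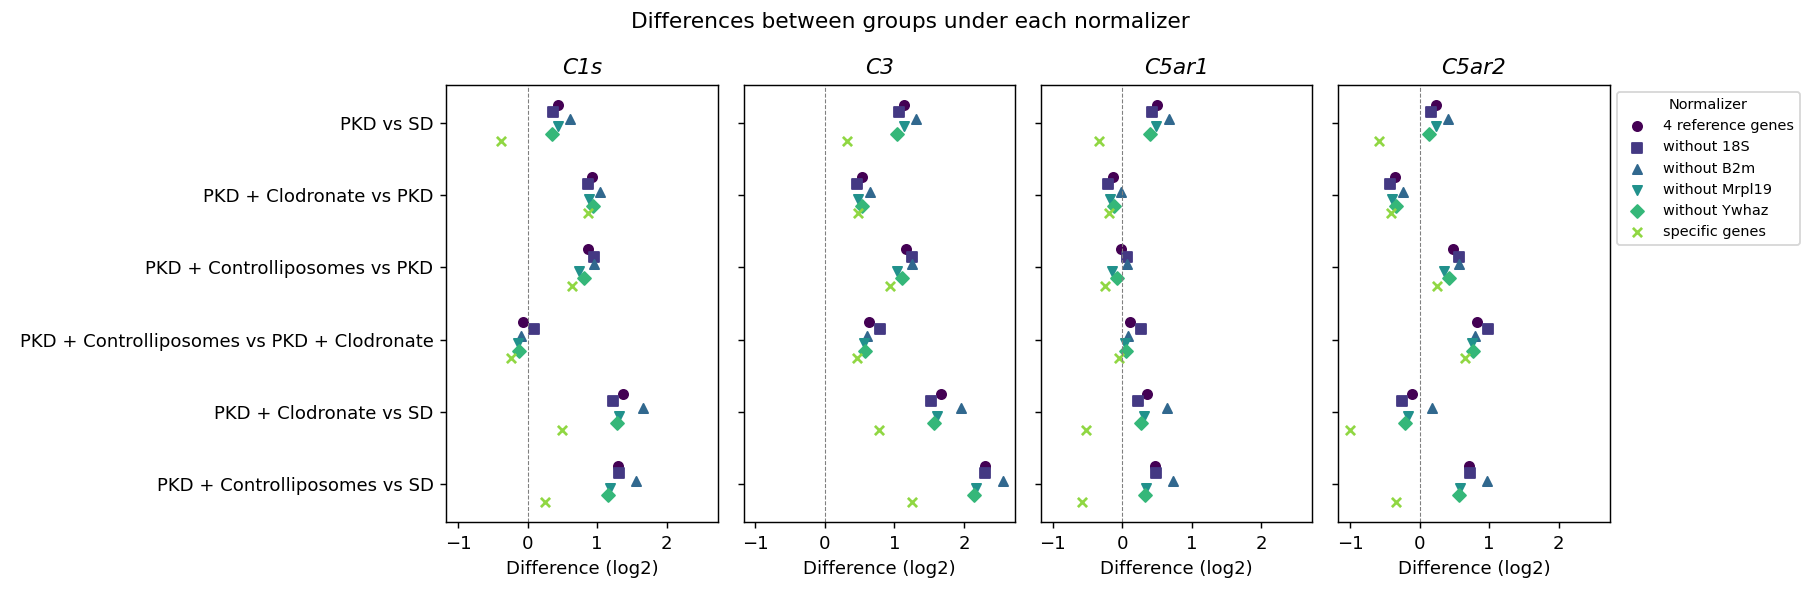
Log2 differences of the 4 genes (panels) in 6 comparisons (rows) with 6 normalizers: the 4 reference genes, the same without each of them, and the mean of the specific genes. The specific-gene mean (crosses) shifts all comparisons with SD rats downwards, by up to -1.05 in the median gene, whereas points of the 3 comparisons among PKD groups stay close together.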

How the data were processed

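Retinal RNA was reverse transcribed, pre-amplified for 14 cycles, and measured on TaqMan cards with at most 40 cycles. The study's methods required an RNA integrity number above 7.5. Whether DNA was digested is not given in the sources used here, and the *C5ar1* and *C5ar2* assays are of the type that lies within 1 exon. The authors deposited Cq values, another unit than counts or intensities, for every well before normalization. The authors also deposited fold changes of their own comparisons, which were not used. Wells were named and rats grouped through the supplement's list of Cq values and samples, by a match within 0.0005 cycles for all 48 wells. The labels' replicate numbers could not be tied to animals, and 11 of 34 columns, without a listed group, were not used.

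Of 1104 wells, 57 without a Cq were left out. Genes with at least 3 Cq values per group (41 of 44) were fitted in limma 3.58.1 (R 4.3.3) over the 4 groups, with Benjamini-Hochberg adjustment at 0.05. Exact permutation tests were two-sided, with 0.00216 as the smallest possible p. Fits were tested on simulated data. Alternatives were each reference gene left out, the specific-gene mean as normalizer, empty wells set to 40, genes with a Cq in every rat, the compared groups alone, an ordinary linear model, exact tests, and each rat left out. All 44 symbols matched RefSeq. Besides the complement genes, genes were named from lists of markers and by the 3 highest values of r. The members and lists were chosen with earlier results of these data known.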

Additional observations from a re-analysis of the deposited data

Results flagged for a closer look

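In 40 groups of values searched for a single rat far from the others, 5 were found. Chance would give about 2 if the groups were independent. They share rats and genes, so the 5 cannot be read as an excess. *C5ar1* in SD rat 93 was -1.55, with the other 5 SD rats between 0.04 and 0.72. *C5ar1* relative to *Aif1* in the same rat was -1.15, against 0.0008 to 0.38 in the others and no reference gene enters that value. *C3* relative to *Aif1* was 3.35 in 1 clodronate-treated rat, against 1.30 to 1.75 in the other 4, and *C5ar2* relative to *Aif1* was 1.32 in the same rat, against -0.38 to 0.02. This rat had the lowest *Aif1* value of its group, -0.98. In another clodronate-treated rat *C5ar2* relative to *C5ar1* was -0.075, against -0.62 to -0.54 in the other 4.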

How the results depend on the processing

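No paired analysis was possible because the columns carry animal numbers and not the replicate numbers of the labels, so the replicate block was not run. With the specific-gene mean as the normalizer, the *C1s* difference to SD rats was -0.38 for untreated PKD rats, 0.49 for clodronate, and 0.26 for control liposomes, none past the threshold, and by 0.87 and 0.64 in the clodronate and control liposome groups compared to PKD rats, both past it. *C3* was 0.31 higher in PKD than in SD rats and no longer passed. *C5ar1* reversed to -0.33, -0.52, and -0.57 in the 3 comparisons with SD rats, the last past the threshold, and to -0.054 between control liposomes and clodronate. *C5ar2* reversed to -0.59 in PKD and -0.33 with control liposomes, and with clodronate it was -0.99 and passed. On that scale 7 genes were higher and 16 lower in PKD than in SD rats (14 and 1 with the reference genes), 9 and 13 with clodronate (19 and 2), and 8 and 17 with control liposomes (23 and 3). This scale moves all genes of a comparison alike, by -0.82 in PKD compared to SD rats. These turns place a gene relative to the rest of the card and do not show whether the gene itself fell.

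Without *18S*, *C1s* in control liposome-treated compared to PKD rats (0.95) and *C5ar2* between control liposomes and clodronate (0.98) passed, *C1s* between control liposomes and clodronate turned to 0.087, and *C5ar1* in control liposome-treated compared to PKD rats turned to 0.067, as it did without *B2m* (0.069). *C3* in control liposome-treated compared to PKD rats no longer passed without *B2m* (1.25), *Mrpl19* (1.04), or *Ywhaz* (1.11). *C5ar2* in control liposome-treated compared to SD rats no longer passed without *Mrpl19* (0.59) or *Ywhaz* (0.57), nor in the fit of the compared groups alone or the exact permutation test (0.71 in both), and in clodronate-treated compared to SD rats it turned to 0.17 without *B2m*. In the fit of the compared groups alone, *C1s* in control liposome-treated compared to PKD rats passed (0.86). The cause of these changes was not tested.

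The number of genes past the threshold was 23 with the specific-gene mean in PKD compared to SD rats. In clodronate-treated compared to PKD rats it was 2 with the specific-gene mean and 1 with empty wells set to 40. In control liposome-treated compared to PKD rats it was 3 without *18S* and with empty wells set to 40, 0 without *B2m*, *Mrpl19*, or *Ywhaz*, 5 with the specific-gene mean and with the compared groups alone, 2 with the ordinary linear model, and 4 with the exact permutation test. Between control liposomes and clodronate it was 0 without *B2m*, 1 without *Mrpl19*, and 3 without *18S* and with the compared groups alone, compared to 2 as reported.

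Leaving out single rats, *C3* in control liposome-treated compared to PKD rats lay between 1.02 and 1.33 and *C5ar2* in control liposome-treated compared to SD rats between 0.57 and 0.85. Between control liposomes and clodronate, *C1s* lay between -0.22 and 0.061, *C5ar1* between -0.018 and 0.24, and the number of genes past the threshold between 0 and 3. *C5ar1* in control liposome-treated compared to PKD rats lay between -0.15 and 0.073, *C5ar2* in clodronate-treated compared to SD rats between -0.26 and 0.023, and the number of genes past the threshold in control liposome-treated compared to PKD rats between 0 and 1. Relative to *Aif1*, *C3* between control liposomes and clodronate lay between -0.51 and 0.0046 and *C5ar1* in clodronate-treated compared to PKD rats between -0.10 and 0.42. For *C5ar2* relative to *Aif1* the ranges were -0.073 to 0.29 in PKD compared to SD rats, -0.30 to 0.19 in clodronate-treated and -0.35 to 0.019 in control liposome-treated compared to PKD rats, -0.30 to 0.14 between control liposomes and clodronate, and -0.19 to 0.24 and -0.19 to 0.069 in clodronate- and control liposome-treated compared to SD rats. *C3* relative to *C1s* in PKD compared to SD rats and *C5ar1* relative to *Aif1* in control liposome-treated compared to PKD rats, not called with all rats, passed in 1 of 12 fits each, with differences of 0.56 to 0.89 and -0.81 to -0.46, and each of the 11 called pair differences lost its call in at least 1 fit. The other differences of *C1s*, *C3*, *C5ar1*, and *C5ar2*, normalized to the reference genes, kept their direction and their side of the threshold in every fit with 1 rat left out.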
